A study of Danio rerio with 45 samples.

Results

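Transcripts of 9 zebrafish pancreas genes were followed across early development in wild-type embryos and in embryos lacking a de novo DNA methyltransferase. The 9 genes were chosen by name, with earlier results of these data known. They are the transcription factor genes pdx1 and ptf1a, the insulin gene ins, and the digestive protease genes prss1, prss59.1, prss59.2, ela2, ela3l and cpa5. Of these, prss59.1 was selected on its low measured signal in the embryos lacking dnmt3aa. The shares of these genes called below, set beside all probes, are therefore a description. On the array 16 of 43603 probes carry an accession of these 9 genes, among 14212 gene symbols that could be assigned in all. Each gene has 2 probes except ptf1a and prss59.2, which have 1 each. Within a gene the probe with the higher mean signal is called probe a and the other probe b, and levels are compared between groups for a probe, never between probes.

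Each of the 45 one-colour arrays held RNA of 1 pool of 20 whole zebrafish (Danio rerio) embryos, with 3 pools for each of 3 genotypes at 5 stages. These were 1-2 cell (just after fertilization), shield (gastrula), 5-somite (early segmentation), and 1 and 2 dpf (days post-fertilization). The genotypes were wild type (WT), a dnmt3aa-/- line that the study describes as maternal-zygotic (MZdnmt3aa, so that the egg had no dnmt3aa function from the mother either), and dnmt3bb.2-/- (dnmt3bb.2 below), whose labels do not say whether the mothers were mutant. The position of neither lesion is given in the sources used here. The unit is the log2 signal score, the log2 of the intensity after each array was scaled to the same trimmed mean. The comparisons ask which transcripts differ between a mutant line and WT at each stage.

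The pancreas has an endocrine part, whose beta cells release insulin, and an exocrine part, whose acinar cells make the enzymes that digest food. In zebrafish the first insulin cells form from the dorsal bud during somite stages, while the acinar cells come later, mostly from the ventral bud. pdx1 encodes a homeodomain factor of the pancreatic and duodenal endoderm that later maintains beta cells. ptf1a encodes a basic helix-loop-helix factor needed for acinar cells that is also active in neurons of the hindbrain and retina. prss1 encodes trypsin, prss59.1 and prss59.2 encode trypsin-type serine proteases, ela2 and ela3l encode elastases and cpa5 encodes a carboxypeptidase A. Transcripts at the 1-2 cell stage were laid down by the mother, since the embryo's own genes are still silent. In pools of whole embryos, fewer cells of a type and less RNA per cell cannot be told apart.

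Of the spots, between 62.3% and 84.5% were well above background on an array, and none was saturated. The MZdnmt3aa arrays lay on slides of their own and were scanned apart from all others, so that slide or scan and genotype cannot be told apart there. At 5-somite the WT and dnmt3bb.2 arrays also lay on separate slides. The single dnmt3bb.2 probe was lower in dnmt3bb.2 than in WT at all 5 stages (log2 score 10.95 against 13.63 at 5-somite). The single dnmt3aa probe was higher in MZdnmt3aa at all 5 stages (9.02 against 8.23 at 2 dpf). Without the position of the lesion this probe does not check the label.

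In WT, signal of prss59.1 was highest before a pancreas is present. Its probe a read 5.30, 5.80 and 5.33 in the 3 pools at 1-2 cell, 11.47, 11.56 and 11.56 at shield, 11.38, 11.32 and 11.42 at 5-somite, 9.13, 9.16 and 9.22 at 1 dpf and 8.99, 8.86 and 8.99 at 2 dpf. Shield and 5-somite pools were thus the highest of the course, and all later pools were lower. Probe b was not well above background at 1-2 cell and followed the same course from shield on, with means of 9.50, 9.17, 7.52 and 7.40.

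Between 5-somite and 1 dpf in WT, 10 member probes rose and 4 fell of 16 tested at an adjusted p of at most 0.01 (limma, Benjamini-Hochberg over all probes tested, as for every adjusted p and every call below). Of all probes tested 37% rose and 36.2% fell, 73.2% together. Since the 5-somite arrays were scanned apart from the 1 dpf arrays, scan and stage cannot be told apart in this step. The probes that fell were prss59.1 probe a (-2.203 ± 0.05 log2, SE, as for every ± below), prss59.1 probe b (-1.65 ± 0.07), prss1 probe a (-1.60 ± 0.06) and prss59.2 (-0.82 ± 0.09). ins was not well above background on any WT array at 1-2 cell, shield or 5-somite. It was at least 132-fold higher (probe a) and 105-fold higher (probe b) at 1 dpf than at 5-somite, and by 3.40 and 3.71 log2 under normexp correction. Such a bound sets the mean of the bright group against the higher of the dim probe's own signal and the weakest signal on each array that is well above background. ela2 rose 37.6-fold by probe a (from 6.26 to 11.49) and 10.3-fold by probe b (3.57 and 0.96 log2 under normexp correction). ptf1a rose by 2.95 ± 0.12 from 6.12, and pdx1 probe a by 2.54 ± 0.04 from 7.63. Both cpa5 probes were also called (1.99 ± 0.16 and 1.90 ± 0.29). Each was well above background on 0 WT arrays at 5-somite and on 1 at 1 dpf. The rise of ela3l probe a (0.39 ± 0.06) turned to a fall under quantile normalization and under normexp correction.

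From 1 dpf to 2 dpf, 8 member probes rose and 2 fell of 16 tested in WT, where 30.9% of all probes rose and 25.6% fell (56.5% together). In WT the carboxypeptidase gene cpa5 was well above background on all 3 arrays only at 2 dpf. Its probe a read 4.15, 4.26 and 3.77 at 1 dpf, with 1 array above background, and 8.35, 8.05 and 8.03 at 2 dpf. Both cpa5 probes rose (4.09 ± 0.16 and 3.70 ± 0.27, and 1.46 and 1.19 under normexp correction). prss1 rose by probe a (1.41 ± 0.12) and probe b (2.22 ± 0.19), and ins by 1.48 ± 0.06 and 1.55 ± 0.06. ela2 was the gene that fell, by 0.99 for probe a and 0.75 for probe b. The calls of ela2 and of prss59.2 (0.61 ± 0.13) ended when any 1 dpf array or replicate 2 of 2 dpf was left out (ela2 probe a -1.16 to -0.80, ela2 probe b -0.88 to -0.61, prss59.2 0.49 to 0.71), and with the slide as a random block.

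The 2 probes of prss1 did not follow the same course. Probe a read 9.43 on average at shield and 9.95 at 5-somite in WT, then 8.36 at 1 dpf and 9.76 at 2 dpf. Probe b read 6.45, 7.66, 7.79 and 10.02 at these stages. The WT mean of probe b thus rose at each step from shield to 2 dpf, but at 1-2 cell it was 8.69, above the shield mean. The step of probe b from 5-somite to 1 dpf was not called (0.13 ± 0.05, adjusted p = 0.056). This step turned to a fall under quantile normalization (-0.27). The early hump of probe a has the outline of that of prss59.1. Whether a probe of these related proteases also binds transcripts of a relative was not tested.

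prss59.1 had been selected because it was low in MZdnmt3aa, so its values there are a description and were not tested. In MZdnmt3aa probe a read 4.05, 3.71 and 4.36 at 1-2 cell, 3.79, 4.51 and 6.58 at shield, 4.11, 4.40 and 5.12 at 5-somite, 3.17, 3.63 and 2.66 at 1 dpf and 2.81, 2.27 and 2.34 at 2 dpf. Only replicate 3 of shield and replicate 3 of 5-somite were well above background. Every MZdnmt3aa pool lay below every WT pool of its stage. The mean differences from WT were -1.43, -6.57, -6.83, -6.01 and -6.47 from 1-2 cell to 2 dpf, against a group mostly not above background. They were -0.47, -6.003, -6.33, -4.17 and -3.95 with a floor of 32, and 0.56, -3.75, -3.88, -2.08 and -2.04 under normexp correction. The floor lifts dim values to 32 and normexp correction adds an offset of 50, so that by construction both shrink the differences of dim probes. The change of sign at 1-2 cell under normexp correction is more than such a shrinkage, and its cause was not tested.

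Probe b of prss59.1 was not well above background on any MZdnmt3aa array, with readings between 2.13 and 3.12. WT was at least 33.8-fold brighter than MZdnmt3aa at shield by this probe, 28.9-fold at 5-somite, 10.3-fold at 1 dpf and 6.93-fold at 2 dpf. By probe a the bound was 2.25-fold at 1-2 cell, where the sign changed under normexp correction, 32.2-fold at 1 dpf and 20.2-fold at 2 dpf. Early and late signals of prss59.1 were therefore both low in these pools.

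prss59.2, the gene next to prss59.1 on the chromosome, was measured by 1 probe that gave a smaller difference. In WT it read 5.93, 6.19 and 5.84 at shield, 7.43, 7.31 and 7.54 at 5-somite, 6.46, 6.65 and 6.71 at 1 dpf and 7.02, 7.17 and 7.45 at 2 dpf. In MZdnmt3aa it read 4.73, 4.42 and 4.93, then 5.84, 6.35 and 6.60, then 5.80, 5.82 and 5.98, and 6.004, 5.91 and 6.66 at the same stages. All MZdnmt3aa pools were below all WT pools at each of these 4 stages. It was lower at shield (-1.30 ± 0.18, adjusted p = 0.0051), 5-somite (-1.16 ± 0.21, adjusted p = 0.0088) and 1 dpf (-0.74 ± 0.09, adjusted p = 0.0030), whereas the difference at 2 dpf was -1.02 ± 0.23 (adjusted p = 0.021). Each of these calls ended when any 1 of 4 or 5 of the 6 arrays was left out, with values from -1.42 to -1.16 at shield, -1.33 to -0.95 at 5-somite and -0.81 to -0.69 at 1 dpf. The arrays concerned were every WT array and MZdnmt3aa replicates 1 and 2, except WT replicate 1 of 1 dpf. Under normexp correction the shield and 1 dpf values were -0.29 and -0.24 and neither was called, and the 5-somite call was lost with a floor of 32 and with slide as a random block.

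In dnmt3bb.2, prss59.1 and prss59.2 were higher than in WT at 1 and 2 dpf. prss59.1 probe a read 3.87, 5.27 and 5.69 at 1-2 cell, with replicate 1 not well above background. It then read 11.59, 11.58 and 11.67 at shield and 11.66, 11.62 and 11.60 at 5-somite, with differences from WT of 0.09 ± 0.05 (adjusted p = 0.17) and 0.26 ± 0.05 (adjusted p = 0.0080). The latter call ended when any 1 of the 6 arrays was left out (0.23 to 0.28). At the later stages it read 11.31, 11.32 and 11.36 at 1 dpf and 12.53, 12.78 and 12.17 at 2 dpf, above every WT pool.

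The rise in dnmt3bb.2 was 4.47-fold at 1 dpf (2.16 ± 0.04 log2, adjusted p = 2.2e-06) and 11.7-fold at 2 dpf (3.55 ± 0.16, adjusted p = 8.5e-05). Probe b gave 2.09 ± 0.05 and 3.28 ± 0.17. prss59.2 read 7.77, 7.67 and 7.79 at 1 dpf and 9.60, 9.54 and 9.12 at 2 dpf, again above every WT pool, with differences of 1.13 ± 0.08 (adjusted p = 1.1e-04) and 2.21 ± 0.18 (adjusted p = 5.4e-04). With slide as a block, where the 1 slide that held both genotypes had only 1 dnmt3bb.2 array at 1 dpf and only 1 WT array at 2 dpf, prss59.1 probe a was higher by 2.14 and 3.51 and prss59.2 by 1.16 and 1.97, all still called. Under normexp correction prss59.1 probe b was higher by 1.37 and 2.25 and prss59.2 at 2 dpf by 1.403. Between 5-somite and 1 dpf the mean of probe a went from 11.37 to 9.17 in WT and from 11.63 to 11.33 in dnmt3bb.2. The difference between these steps was not tested.

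**Figure D1:**
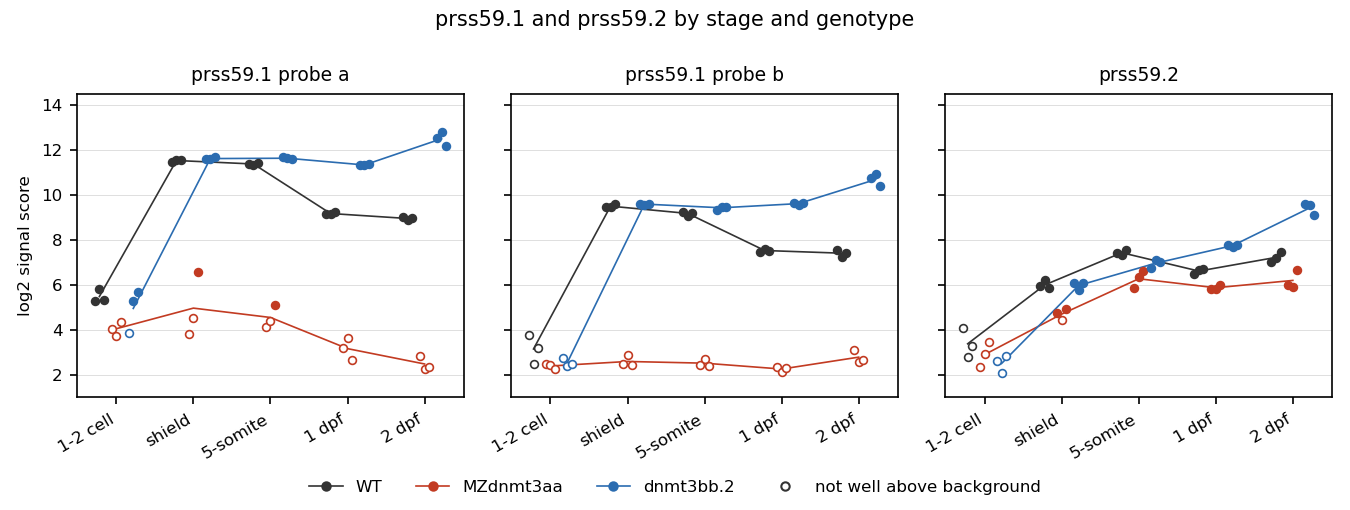
Log2 signal score (vertical axis) of the prss59.1 and prss59.2 probes at 5 stages (horizontal axis), 1 point for each pool, with lines through the group means; open points are not well above background. MZdnmt3aa pools lie near background for prss59.1 probe b at all stages, and dnmt3bb.2 pools reach 12.17 to 12.78 for probe a at 2 dpf against 8.86 to 8.99 in WT.

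The difference of dnmt3bb.2 from WT grew between 1 dpf and 2 dpf for these genes. The change of the genotype effect was 1.39 ± 0.18 for prss59.1 probe a (adjusted p = 7.7e-04), 1.19 ± 0.19 for probe b (adjusted p = 0.0023) and 1.07 ± 0.20 for prss59.2 (adjusted p = 0.0057). It was negative for prss1 probe b (-1.29 ± 0.22) and cpa5 probe a (-1.12 ± 0.19), whose value was -0.45 with a floor of 32 and then not called. Thus 3 member probes rose and 2 fell of 16 tested for this change, while 3.71% of all probes rose and 5.29% fell (9% together). The call of prss59.2 ended when any 1 of 9 of the 12 arrays was left out, all but WT replicate 1 of 1 dpf, WT replicate 3 and dnmt3bb.2 replicate 3 of 2 dpf (0.97 to 1.22), and that of prss1 probe b ended without WT replicate 2 of 1 dpf (-1.50 to -1.14 over all arrays left out). The count was 3 without WT replicate 2 of 1 dpf. For MZdnmt3aa, 0 of 14 member probes tested were called for this change. Of all probes 0.379% were higher and 0.654% lower (1.03% together, by limma). With replicate 3 of 1 dpf or of 2 dpf left out, 1 or 2 member probes were called.

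pdx1 was present in the egg. Probe a read 11.40, 11.40 and 11.41 in WT at 1-2 cell, 9.90, 9.69 and 9.76 at shield, 7.60, 7.63 and 7.67 at 5-somite, 10.14, 10.19 and 10.17 at 1 dpf and 10.39, 10.41 and 10.36 at 2 dpf. The WT level thus fell to 5-somite and rose again afterwards. In MZdnmt3aa it read 12.17, 12.14 and 12.37 at 1-2 cell, 11.80, 10.92 and 9.96 at shield and 10.32, 10.40 and 9.87 at 5-somite. All MZdnmt3aa pools were above all WT pools at these 3 stages, and the shield pools were spread widely.

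pdx1 was higher in MZdnmt3aa at 1-2 cell by 0.82 ± 0.07 (probe a, adjusted p = 2.9e-04) and 0.69 ± 0.04 (probe b, adjusted p = 7.2e-05), the latter not called under normexp correction (0.79, adjusted p = 0.073). At shield the difference of probe a was 1.11 ± 0.45 (adjusted p = 0.12). At 5-somite it was 5.92-fold higher by probe a (2.56 ± 0.15, adjusted p = 3.8e-04) and at least 2.62-fold higher by probe b (adjusted p = 0.0015), which was not well above background on any WT array. The call of probe b at 5-somite was lost under normexp correction (0.02), with a floor of 32 (0.71) and with slide as a random block (1.94).

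By 1 dpf the MZdnmt3aa pools had no such excess. Probe a read 9.97, 10.08 and 9.77 at 1 dpf and 9.60, 9.61 and 10.28 at 2 dpf, below all WT pools. The differences were -0.23 ± 0.09 (adjusted p = 0.11) and -0.56 ± 0.20 (adjusted p = 0.077). Probe b was lower at 2 dpf (5.01, 5.05 and 5.52 against 6.57, 6.33 and 6.26; -1.19 ± 0.17, adjusted p = 0.0051), a call that ended without any WT array or MZdnmt3aa replicate 1 or 2 (-1.35 to -1.10), and whose value was -0.47 under normexp correction.

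In dnmt3bb.2, pdx1 was called at 5-somite (probe a) and 1 dpf (probe b). At 1-2 cell probe a read 10.42, 9.34 and 10.38, below all WT pools (-1.36 ± 0.31, adjusted p = 0.017). At 5-somite it was higher than WT by 0.56 ± 0.08 (adjusted p = 0.0025), which ended as a call without WT replicate 1 or 2 or dnmt3bb.2 replicate 2 (0.51 to 0.63). At 1 dpf probe b was higher by 0.32 ± 0.06, and probe a was lower by 0.13 without a call, so the probes differed in direction. The call of probe b ended without WT replicate 3 or any dnmt3bb.2 array (0.26 to 0.36), with slide as a block and under normexp correction (0.11).

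ptf1a was not well above background on any array at 1-2 cell or shield. In WT it read 6.18, 6.29 and 5.89 at 5-somite, 9.19, 9.05 and 8.99 at 1 dpf and 9.66, 9.64 and 9.63 at 2 dpf. In MZdnmt3aa it read 4.65, 4.10 and 3.38 at 5-somite, with only replicate 1 well above background, 8.04, 8.26 and 8.98 at 1 dpf and 10.003, 9.94 and 9.14 at 2 dpf. These 2 genotypes did not overlap at 5-somite and overlapped at 2 dpf. At 1 dpf the highest MZdnmt3aa pool (8.979) lay just below the lowest WT pool (8.985).

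ptf1a was lower in MZdnmt3aa by 2.08 ± 0.33 at 5-somite (adjusted p = 0.0062), by 0.65 ± 0.25 at 1 dpf (adjusted p = 0.096) and not at 2 dpf (0.05 ± 0.24, adjusted p = 0.88). The 5-somite call ended without any WT array or MZdnmt3aa replicate 2 (-2.38 to -1.75) and with slide as a random block (-2.21), and the value was -0.53 under normexp correction. dnmt3bb.2 pools were also lower at 5-somite (5.61, 5.29 and 5.47; -0.67 ± 0.13, adjusted p = 0.0087), a call that ended without any of 5 arrays, WT replicates 1 and 2 and every dnmt3bb.2 array (-0.78 to -0.58), and with a floor of 32. Their later readings lay between 9.25 and 9.81.

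At 1-2 cell, ins was well above background in all 3 MZdnmt3aa pools and in no WT or dnmt3bb.2 pool. ins probe a read 10.60, 10.59 and 10.73 in the MZdnmt3aa pools at 1-2 cell, against 2.25, 2.28 and 2.44 in WT and 2.83, 2.21 and 2.36 in dnmt3bb.2. Probe b read 10.09, 10.02 and 10.11 against at most 2.03 in WT and 2.97 in dnmt3bb.2. MZdnmt3aa was at least 96.1-fold (adjusted p = 5.2e-07) and 64.8-fold (adjusted p = 4.2e-07) higher than WT. The log2 differences of 8.32 and 8.14 were 5.64 and 5.07 with a floor of 32 and 3.21 under normexp correction for both probes, still called. Slide and scan cannot be told apart from the genotype in this difference.

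Of 81 other pancreas genes on the lists described further on, 52 could be tested in MZdnmt3aa at 1-2 cell. The hormone genes gcga, gcgb and sst2 (glucagon and somatostatin), named after their values were seen, were well above background on 0 of 3 WT and 0 of 3 MZdnmt3aa arrays. So were ptf1a, ela2, ela3l and cpa5, and prss1 differed by 0.12 ± 0.05 (probe a, adjusted p = 0.094) and 0.10 ± 0.06 (probe b, adjusted p = 0.20). insb, another insulin gene, was lower in MZdnmt3aa (8.46 against 9.36, -0.91 ± 0.05, adjusted p = 6.4e-05). In this comparison 4 member probes, those of ins and pdx1, were higher and 0 lower of 6 tested. Both ins probes passed the filter only through the MZdnmt3aa arrays, where they are high, so they could not have come out lower. In the list of hormone and secretion genes 2 were higher and 3 lower of 8. Of all probes 28.5% were higher and 28.8% lower (57.3% together). The hormone genes named above were picked and do not stand for that list, and ins was not the only endocrine gene that was higher. Intensity summed over the liver list, also described further on, ranged from 467 to 5491 in MZdnmt3aa at 1-2 cell (median 585). In WT it ranged from 1124 to 1178. The hatching gland list gave 315 to 3760.5 (median 538) against 94.6 to 162 in WT. The intestine list gave 383 to 1680 (median 416) against 414 to 485. Summed signal of other organs thus also exceeded WT in at least 1 MZdnmt3aa pool, and its source was not tested.

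The ins signal of MZdnmt3aa then varied between pools. At shield probe a read 2.57, 9.17 and 8.25, and probe b 2.204, 8.45 and 7.57, with replicate 1 not well above background. At 5-somite probe a read 2.30, 2.94 and 6.57 and probe b 2.57, 3.18 and 6.03, with only replicate 3 above background. Replicates 2 and 3 of shield were therefore far above all WT and dnmt3bb.2 pools, and replicate 1 was among them. The group differences were not called (adjusted p = 0.13 and 0.21 at shield, 0.49 and 0.34 at 5-somite). Shield replicate 1 lay on slide 9 with the 1-2 cell pools and the others on slide 10, 5-somite replicate 3 lay on slide 11 and the others on slide 10, and the part of slide in this spread was not tested.

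Once the embryo's own insulin cells are present, ins was well above background in every pool, and MZdnmt3aa lay closer to WT than at 1-2 cell. At 1 dpf probe a read 11.30, 11.37 and 11.42 in WT, 11.55, 11.60 and 11.68 in MZdnmt3aa and 11.84, 11.95 and 11.92 in dnmt3bb.2. dnmt3bb.2 was higher by 0.54 ± 0.05 (adjusted p = 3.3e-04), and by 0.33 ± 0.05 for probe b (adjusted p = 0.0029), whose call ended without WT replicate 1 or 2 or dnmt3bb.2 replicate 2 or 3 (0.30 to 0.37) and with slide as a block (0.26). MZdnmt3aa differed by 0.25 ± 0.07 for probe a and -0.17 ± 0.06 for probe b, neither called and of opposite sign.

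At 2 dpf the ins readings were 12.86, 12.82 and 12.85 in WT, 12.75, 12.53 and 12.41 in MZdnmt3aa and 13.37, 13.20 and 13.46 in dnmt3bb.2 by probe a. Probe b was lower in MZdnmt3aa (11.95, 11.84 and 11.68 against 12.65, 12.57 and 12.53; -0.76 ± 0.10, adjusted p = 0.0046), a 1.69-fold difference whose call ended without any WT array or MZdnmt3aa replicate 1 or 2 (-0.82 to -0.68). The difference of probe a was -0.28 ± 0.11 (adjusted p = 0.11). In dnmt3bb.2 neither probe was called at this stage (0.50 ± 0.10, adjusted p = 0.012, and 0.11 ± 0.10, adjusted p = 0.44).

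**Figure D2:**
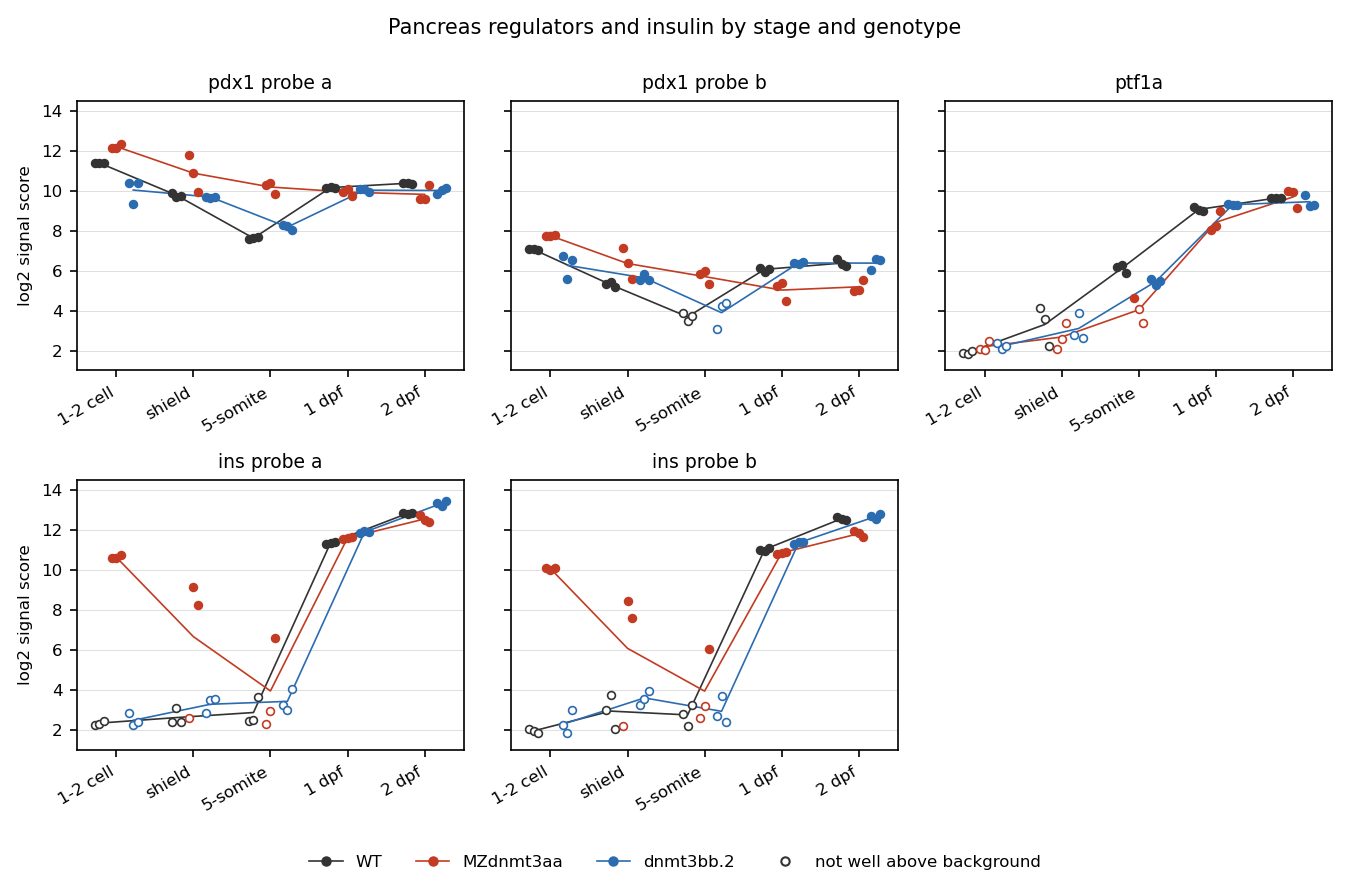
Log2 signal score (vertical axis) of pdx1, ptf1a and ins at 5 stages (horizontal axis), 1 point for each pool, with lines through the group means; open points are not well above background. MZdnmt3aa is the only genotype with ins at 1-2 cell (10.59 to 10.73 for probe a), and its 3 pools at shield range from 2.57 to 9.17.

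ela2 was the member other than prss59.1 with the largest deficit in MZdnmt3aa at 1 and 2 dpf. Probe a read 11.51, 11.51 and 11.46 in WT at 1 dpf, 6.60, 6.61 and 8.52 in MZdnmt3aa and 9.83, 9.83 and 10.06 in dnmt3bb.2. At 2 dpf the readings were 10.85, 10.54 and 10.12, then 7.67, 8.07 and 7.87, and 8.69, 8.42 and 9.06. The 3 genotypes did not overlap at either stage, with WT highest and MZdnmt3aa lowest.

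The deficit of ela2 in MZdnmt3aa was 19.0-fold at 1 dpf by probe a (-4.25 ± 0.55, adjusted p = 0.0031) and lower by 4.21 ± 0.33 for probe b (adjusted p = 7.4e-04), which was well above background in 1 MZdnmt3aa pool. At 2 dpf it was 6.22-fold by probe a (-2.64 ± 0.21, adjusted p = 8.6e-04) and at least 6.82-fold by probe b (adjusted p = 0.0033). The call of probe a at 1 dpf ended without any WT array or MZdnmt3aa replicate 1 or 2 (-4.89 to -3.93), and that of probe b at 2 dpf without any WT array or MZdnmt3aa replicate 2 (-3.70 to -2.88). Under normexp correction probe b gave -1.31 at 1 dpf and -0.845 at 2 dpf, and with a floor of 32 -3.29 and -2.54, while probe a gave -3.24 at 1 dpf under normexp correction, all still called. At 5-somite probe b was already lower (4.92, 5.05 and 4.82 in WT, none of 3 above background in MZdnmt3aa, at least 1.52-fold, adjusted p = 6.8e-04), whereas probe a differed by -1.08 ± 0.25 (adjusted p = 0.019). The probe b call was lost with a floor of 32 (-0.016) and with slide as a random block (-1.37), and the value was -0.45 under normexp correction.

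In dnmt3bb.2, ela2 was lower at 1 dpf by 1.59 for probe a (adjusted p = 3.0e-05) and 0.91 for probe b (adjusted p = 0.0012). The same held at 2 dpf, by 1.78 (adjusted p = 0.0031) and 0.97 (adjusted p = 0.0059). The 2 dpf calls ended without WT replicate 1 or 2 or dnmt3bb.2 replicate 1 or 2 for both probes, and without dnmt3bb.2 replicate 3 for probe b (probe a -1.97 to -1.61, probe b -1.10 to -0.84). With slide as a block the 2 dpf values were -1.40 (adjusted p = 0.032) and -0.69 (adjusted p = 0.044).

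Earlier in development ela2 was higher in dnmt3bb.2 by probe b, while probe a was not called. Probe b read 5.42, 5.67 and 5.69 at shield, where no WT array was well above background, and 6.85, 7.03 and 7.06 at 5-somite against 4.92, 5.05 and 4.82 in WT. The differences were at least 2.32-fold (adjusted p = 8.5e-05) and 4.14-fold (2.05 ± 0.09, adjusted p = 3.6e-05), and 0.26 and 0.38 log2 under normexp correction, still called. Probe a differed by 1.55 ± 0.47 at shield (adjusted p = 0.031) and by 0.47 ± 0.14 at 5-somite (adjusted p = 0.035).

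The neighbour of ela2 on the chromosome is ela2l, a chymotrypsin-like elastase gene that is no member and has 3 probes. Its probe a was not well above background on any WT or MZdnmt3aa array from 1-2 cell to 5-somite, while dnmt3bb.2 averaged 9.97 at shield and 11.50 at 5-somite (adjusted p = 5.4e-07 and 1.2e-06). At 1 dpf it averaged 5.11 in WT, 3.91 in MZdnmt3aa and 10.56 in dnmt3bb.2, and at 2 dpf 4.80, 4.21 and 10.62. In MZdnmt3aa, probe c averaged 2.55 at 1 dpf and 2.63 at 2 dpf, against 6.57 and 5.92 in WT. Probe b averaged 2.86 and 3.61 there, against 4.43 and 4.81 in WT. Neither probe was well above background on any MZdnmt3aa array of these stages. The differences of dnmt3bb.2 by probe a were 5.45 ± 0.14 and 5.82 ± 0.32 (adjusted p = 6.4e-06 and 1.4e-04). ela2l probes b and c were also above all WT pools in dnmt3bb.2 from shield on, with dnmt3bb.2 means of at least 8.57. At 1 and 2 dpf the neighbours thus differed from WT in opposite directions in dnmt3bb.2, ela2 downwards and ela2l upwards, whereas the prss59.1 and prss59.2 neighbours both went up. Whether an ela2 probe also binds transcripts of ela2l, which were bright in dnmt3bb.2 from shield on, was not tested.

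**Figure D3:**
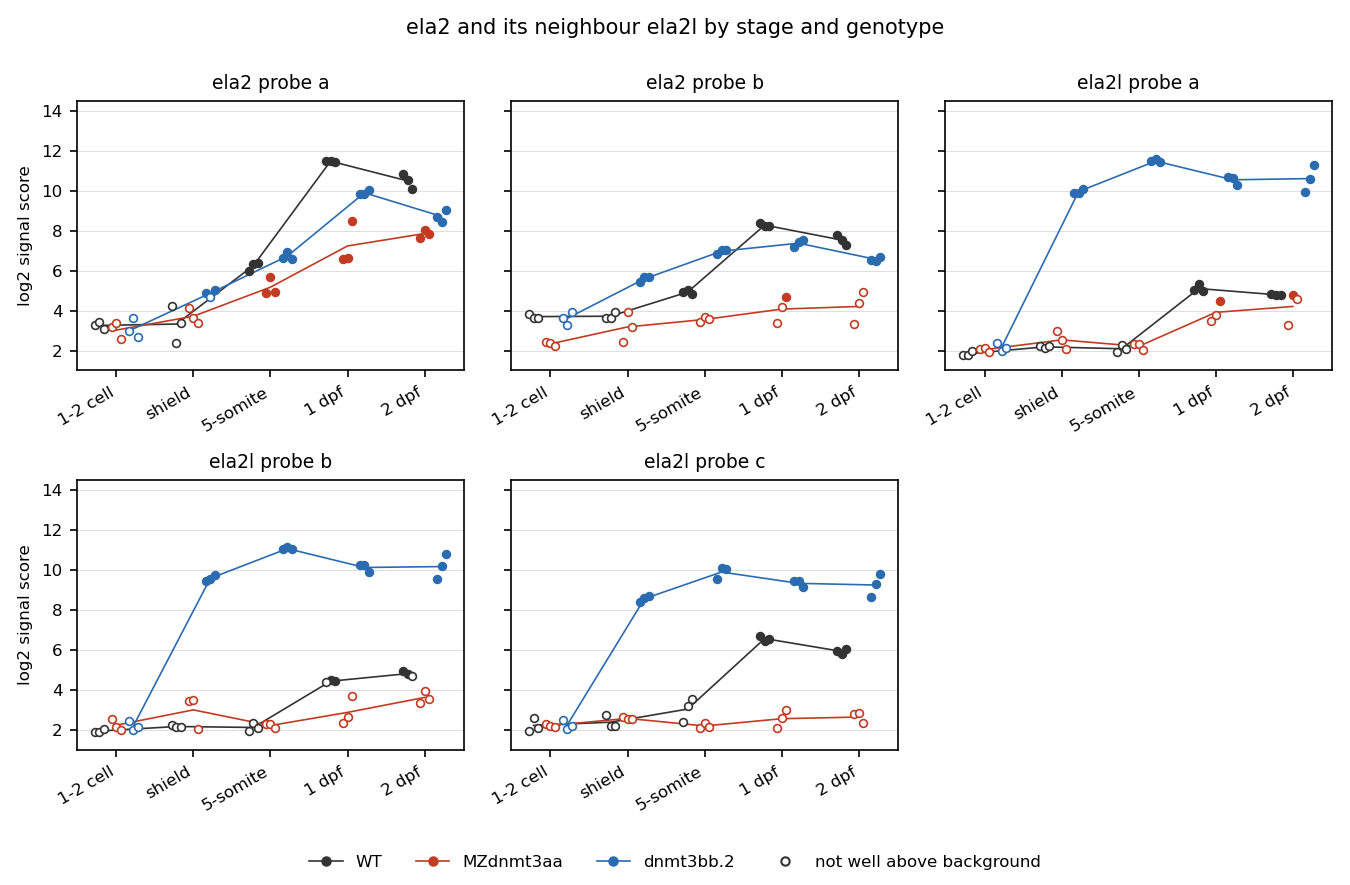
Log2 signal score (vertical axis) of ela2 and of its chromosomal neighbour ela2l at 5 stages (horizontal axis), 1 point for each pool, with lines through the group means; open points are not well above background. WT is highest for ela2 at 1 and 2 dpf, and ela2l probe a averages 11.50 in dnmt3bb.2 at 5-somite with WT near background.

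prss1 was close between MZdnmt3aa and WT in the egg and fell behind later by probe a. Probe a read 9.34, 9.44 and 9.51 in WT at shield and 7.69, 8.50 and 8.16 in MZdnmt3aa, a difference of -1.31 ± 0.22 (adjusted p = 0.0098). At 5-somite the pools also stood apart (9.98, 9.89 and 9.99 against 8.67, 8.97 and 7.92; -1.43 ± 0.27), with an adjusted p of 0.011. At 1 dpf it was lower by 0.42 (8.43, 8.27 and 8.36 against 7.95, 7.95 and 7.90, adjusted p = 0.0062). The shield call ended without any WT array or MZdnmt3aa replicate 3 (-1.50 to -1.09) and with a floor of 32, and that of 1 dpf without any WT array or MZdnmt3aa replicate 1 or 2 (-0.46 to -0.38).

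Probe b of prss1 showed no called difference in MZdnmt3aa. At 2 dpf it read 10.31, 10.13 and 9.60 in WT and 7.92, 7.64 and 9.29 in MZdnmt3aa (-1.73 ± 0.45, adjusted p = 0.032), and probe a 9.70, 9.60 and 9.99 against 8.42, 8.34 and 9.03 (-1.16 ± 0.22, adjusted p = 0.011). Replicate 3 of MZdnmt3aa lay nearest to WT for both probes. In dnmt3bb.2 probe b was lower at 1-2 cell (-1.08 ± 0.17) and higher at shield (1.34 ± 0.19), 5-somite (0.82 ± 0.06) and 1 dpf (1.06 ± 0.07), with adjusted p of 0.0044, 0.0019, 2.6e-04 and 1.4e-04. The 1-2 cell call ended without any WT array or dnmt3bb.2 replicate 3 (-1.22 to -0.92) and with slide as a block (-0.81). Probe a was higher at 1 dpf by 0.43 ± 0.05 (adjusted p = 0.0012), not called with slide as a block (0.45), and neither probe was called at 2 dpf.

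cpa5 was well above background in all 9 pools at 2 dpf. Probe a read 8.35, 8.05 and 8.03 in WT, 7.83, 7.57 and 7.17 in MZdnmt3aa and 7.77, 7.76 and 7.55 in dnmt3bb.2. Both mutants lay below all WT pools, but neither difference was called (-0.62 ± 0.19, adjusted p = 0.052, and -0.45 ± 0.13, adjusted p = 0.037). Probe b gave -0.57 ± 0.14 (adjusted p = 0.024) and -0.53 ± 0.14 (adjusted p = 0.029). At 1 dpf probe a was well above background in 1 WT, 0 MZdnmt3aa and 3 dnmt3bb.2 pools, and its call in dnmt3bb.2 (0.67 ± 0.13) ended without WT replicate 1 or any dnmt3bb.2 array (0.52 to 0.77) and with slide as a block (0.70), and was lost with a floor of 32, which sets all these values equal. Its calls at shield in dnmt3bb.2 (adjusted p = 2.5e-04) and at 1 dpf in MZdnmt3aa (-1.69 ± 0.23, adjusted p = 0.0037) rest on 1 array above background each.

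ela3l was dim throughout. Its probe a read between 5.48 and 6.15 in WT from 5-somite on, and probe b was well above background on 2 of 45 arrays. In MZdnmt3aa probe a read 6.19, 7.13 and 3.73 at 5-somite, on both sides of WT, and no stage was called. In dnmt3bb.2 it was higher at 1 dpf (7.13, 7.11 and 6.96 against 6.03, 5.92 and 5.85; 1.13 ± 0.07, adjusted p = 8.1e-05, and 0.35 under normexp correction), and the 2 dpf difference was 0.57 ± 0.14 (adjusted p = 0.024).

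**Figure D4:**
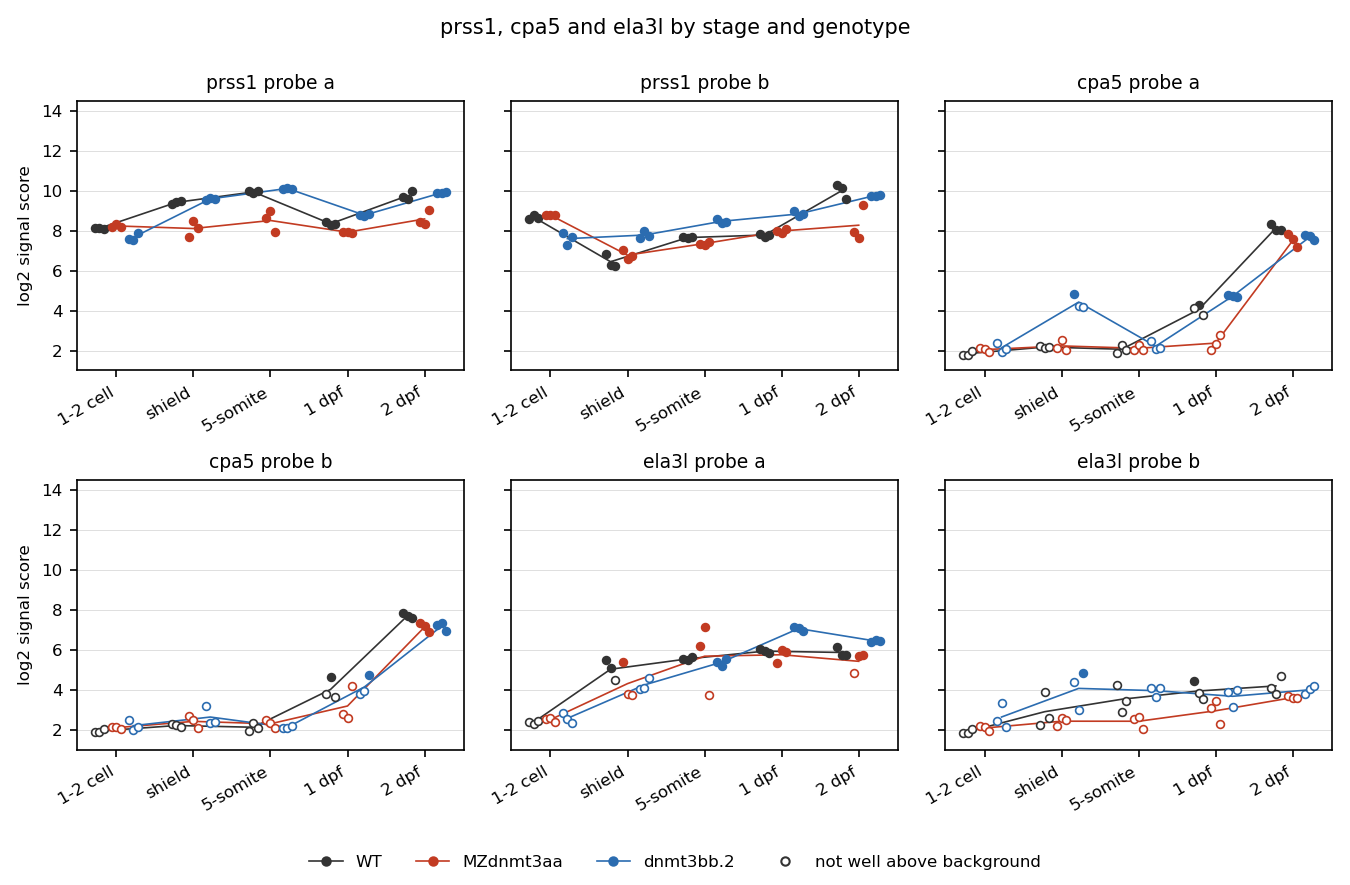
Log2 signal score (vertical axis) of prss1, cpa5 and ela3l at 5 stages (horizontal axis), 1 point for each pool, with lines through the group means; open points are not well above background. cpa5 probe a rises to between 7.17 and 8.35 in all 9 pools of 2 dpf, and the prss1 probes differ in their early course.

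Counted over the members other than prss59.1, MZdnmt3aa had 0 probes higher and 2 lower of 8 tested at shield, 2 higher and 3 lower of 11 at 5-somite, 0 higher and 5 lower of 14 at 1 dpf and 0 higher and 4 lower of 13 at 2 dpf. Over all probes 6.59% were higher and 5.67% lower at shield (12.3% called), 9.82% and 11.5% at 5-somite (21.3%), 11% and 9.82% at 1 dpf (20.8%), and 5.7% and 6.9% at 2 dpf (12.6%). The shares of members called, 25%, 45.5%, 35.7% and 30.8%, rest on counts of 2 to 5 probes. Probes of the same gene are counted apart, as for pdx1 at 5-somite and ela2 at 1 and 2 dpf. The members were chosen with earlier results of these data known, so the shares are a description. Without any 1 WT array the count was 0 at shield, 3 at 5-somite, 1 or 2 at 1 dpf (2 without replicate 1) and 1 at 2 dpf. Without an MZdnmt3aa array it was 1 at shield (replicate 2 or 3), and 2 (replicate 1) or 1 (replicate 2) at 1 dpf and at 2 dpf. The 2 dpf count rose to 8 without MZdnmt3aa replicate 3.

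Over all 16 member probes, dnmt3bb.2 had 0 higher and 1 lower of 5 tested at 1-2 cell, 3 and 0 of 12 at shield, 4 and 1 of 10 at 5-somite, 10 and 2 of 16 at 1 dpf and 3 and 2 of 15 at 2 dpf. Over all probes 15.1% were higher and 16.3% lower at 1-2 cell (31.4% called), 27.4% and 24.1% at shield (51.5%), 16.9% and 18.9% at 5-somite (35.8%), 22.8% and 24.1% at 1 dpf (46.9%), and 6.31% and 8.61% at 2 dpf (14.9%). At 1-2 cell and shield the members' share was below that of all probes. The 10 higher at 1 dpf were both probes of prss59.1, prss1 and ins, with prss59.2, ela3l probe a, cpa5 probe a and pdx1 probe b, and the 2 lower were those of ela2. The 3 higher at 2 dpf were those of prss59.1 and prss59.2. The 1-2 cell count was 0 without any 1 WT array and 3 without dnmt3bb.2 replicate 2, the 5-somite count was 2 without WT replicate 1 or 2 or dnmt3bb.2 replicate 2 and 3 without dnmt3bb.2 replicate 1 or 3, and the 2 dpf count was 3 without WT replicate 1 or 2 or dnmt3bb.2 replicate 1 or 2. Both mutants were compared with the same WT arrays.

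**Figure D5:**
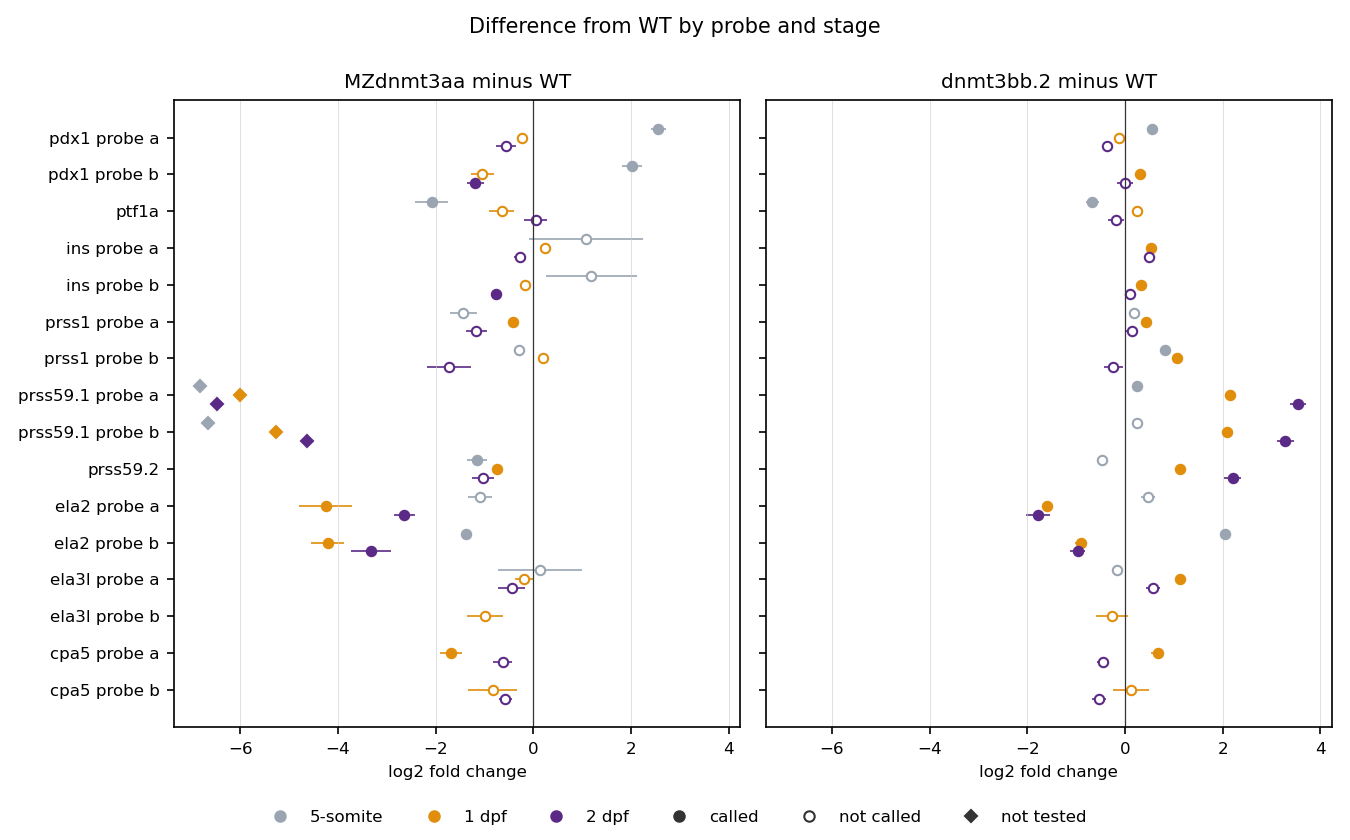
Log2 fold change against WT (horizontal axis) of each member probe (vertical axis) at 5-somite, 1 dpf and 2 dpf, for MZdnmt3aa on the left and dnmt3bb.2 on the right. Bars are standard errors from limma, filled circles are called, open circles are not, and diamonds are prss59.1 in MZdnmt3aa, which was not tested; prss59.1 lies at -6.47 (probe a, 2 dpf) on the left and at 3.55 on the right.

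Each array of 1 and 2 dpf was placed on a timing index, 0 for the WT mean of 1 dpf and 1 for that of 2 dpf, over the 3294 probes whose WT means differ 4-fold or more between them. At 2 dpf MZdnmt3aa read 0.81, 0.83 and 0.99 and dnmt3bb.2 0.86, 0.91 and 0.88, against 0.99, 0.99 and 1.01 in WT. The mean differences were -0.12 for both mutants, with a two-sided exact permutation p of 0.1, the smallest that 3 against 3 allows. The WT arrays chose the probes and set the scale, so WT lies at 0 and 1 by construction and its spread is understated. The permutation p values of this index therefore cannot decide whether a mutant is shifted. Replicate 3 of MZdnmt3aa, the one at 0.99, was the pool nearest to the WT mean for 7 of 16 member probes at that stage (prss1, pdx1, prss59.2, ela2 probe b and ela3l probe a) and the furthest for 5 (ins, cpa5 and ptf1a). At 1 dpf MZdnmt3aa read -0.07, -0.05 and 0.19, and replicate 3 was nearest for 8 and furthest for 7 of the 16. The counts at both stages include prss59.1 and dim probes such as ela3l probe b. They were not made over all probes and are not read as a result about the members. dnmt3bb.2 read 0.06, 0.05 and 0.06 at 1 dpf, above all WT pools (0.05, two-sided exact permutation p = 0.1). Its pools thus lay between the 2 WT means at both stages, and shifts in opposite directions cannot be told apart from the choice of scale. The part of timing in the differences of these genes was not tested. For prss59.1 probe a, chosen for its fall in MZdnmt3aa, the MZdnmt3aa pools of 2 dpf read between 2.27 and 2.81, with 0 well above background.

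Lists of other pancreas genes, written from general knowledge, were set beside the members with 1 probe a gene. Of 12 acinar enzyme genes tested in MZdnmt3aa at 1 dpf, 0 were higher and 4 lower, where 20.8% of all probes were called, with a median log2 fold change of -0.74 against 0.01 over all genes. Among the lower ones were the elastase genes cela1.2 (-3.54) and cela1.5 (-2.26) and the carboxypeptidase gene cpa4 (-1.25). At 2 dpf 0 were higher and 2 lower of 12 (median -0.50 against -0.02, with 12.6% of all probes called), the amylase genes amy2al2 (-2.64) and amy2a (-1.66). cela1.2, cela1.5 and amy2al2 had dim MZdnmt3aa signals of 2.08, 3.63 and 2.48, so these folds are no bounds.

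In dnmt3bb.2, 4 acinar enzyme genes were higher and 4 lower of 10 tested at 1 dpf (median -0.12 against -0.01, with 22.8% of all probes higher and 24.1% lower), and 2 higher and 1 lower of 14 at 2 dpf (median 0.73 against -0.03, with 6.31% and 8.61%). Besides ela2l, those called included cela1.2 (-3.09) and cela1.6 (-3.04) at 1 dpf and cela1.4 (-1.34) at 2 dpf.

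Among endocrine genes other than ins, the hormone and secretion list had 1 higher and 0 lower of 13 tested in MZdnmt3aa at 1 dpf and 0 higher and 2 lower at 2 dpf, pyyb (-0.95) and sst2 (-0.81). Of all probes 20.8% were called in MZdnmt3aa at 1 dpf and 12.6% at 2 dpf. dnmt3bb.2 had 3 higher and 8 lower of 13 at 1 dpf, where 46.9% of all probes were called, and 0 higher and 5 lower at 2 dpf, where 14.9% were. At 1 dpf kcnj11, a subunit of the beta-cell potassium channel, was higher (1.53), while the glucagon gene gcgb (-1.18), the ghrelin gene ghrl (-1.12) and gcga (-0.69) were lower, and ins was higher. Of 20 islet regulators, 0 were higher and 2 lower in MZdnmt3aa at 2 dpf, foxo1a (-3.33) and pax6b (-1.06), and 0 and 3 in dnmt3bb.2, with foxo1a (-2.35) the lowest. Of 18 progenitor genes tested, 0 were higher and 2 lower in MZdnmt3aa at 2 dpf, sox9a (-3.41), a factor of cartilage, and the Notch ligand gene jag1b (-1.82). These regulator and progenitor counts stand beside 12.6% of all probes called in MZdnmt3aa and 14.9% in dnmt3bb.2, and are not read as a result about the lists.

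Markers of neighbouring organs give the setting of these values. Over 16 liver genes the median log2 fold change at 2 dpf was -0.42 in MZdnmt3aa and -0.11 in dnmt3bb.2, where 1 gene was lower, the fibrinogen gene fga (-0.64). Intestine genes had 1 higher and 0 lower of 11 in MZdnmt3aa and 3 and 0 in dnmt3bb.2. Hatching gland genes had 1 higher and 0 lower of 7 in MZdnmt3aa and 3 and 0 in dnmt3bb.2, among them the hatching enzyme genes he1.1 (0.84) and he1.2 (0.70). Of all probes 12.6% were called in MZdnmt3aa and 14.9% in dnmt3bb.2 at 2 dpf. Summed over the liver list, the intensity ranged from 878170 to 954030 in WT, 591330 to 794270 in MZdnmt3aa and 920410 to 994320 in dnmt3bb.2 at 2 dpf. The part of these organs in the pancreas values was not tested.

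The genes whose log2 scores followed a member most closely over the 45 arrays, among 24265 probes, were listed by Pearson's r as a description, since points share stage, slide and scaling. For prss59.1 probe a they were gzm3.4 (0.84), mtnr1c (0.83), pdcl3 (0.83), tubb1 (0.82) and si:dkey-13e3.1 (0.81). For ins probe a they were olfml3b (0.96), atp1a1a.3 (0.94), jph1b (0.94), vegfd (0.94) and matn4 (0.93). For ptf1a they were slc2a11b (0.99), znf516 (0.98), sult1st4 (0.98), hapln3 (0.98) and zgc:101810 (0.98). Among these 24265 probes the highest r was lower for prss59.1 probe a (0.84) than for ins probe a (0.96) or ptf1a (0.99). The array holds 43603 probes, so genes outside the 24265 were not compared. prss59.1 was chosen for its fall in MZdnmt3aa, and those arrays are among the 45. Its lower r is therefore not read as a result.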

How the data were processed

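RNA of whole-embryo pools was hybridised to one-colour Agilent zebrafish arrays (Cy3), and replicates were not pooled. The authors read the scans with Agilent Feature Extraction 12.0.3.1 at default parameters. The deposited intensity values are background-subtracted and spatially detrended signals of each spot in which the software puts a small positive number in place of the lowest. Here each array was scaled to the same 2%-trimmed mean, as in the deposited table, and log2 values were taken, spots flagged as outliers were left out and spots of a probe were averaged. The signal over background limits the precision of dim probes, and the number of arrays that of all.

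Probes were named through the accession in the files and a RefSeq gene table of a later assembly than the array design, so that only names and neighbours were used. Groups came from the labels. Each mutant was compared with WT at 5 stages, WT with itself between stages, and each mutant effect between 1 and 2 dpf (14 comparisons), with limma 3.58.1 in R 4.3.3, fitting only the arrays compared (6, or 12 for a change of effect). A probe was tested if well above background on at least 1 of these arrays and with at least 2 values in each group. A probe above background in only 1 group enters through that group, which all but fixes the direction of its difference. Calls had an adjusted p of at most 0.01 (Benjamini-Hochberg over all probes tested). prss59.1 was chosen for its fall in MZdnmt3aa, so no test of it is given there. The pools are called biological replicates in the study. The test was tested on simulated data. Simulated 2-fold changes were recovered least in MZdnmt3aa at shield, next least in MZdnmt3aa at 2 dpf, and most in dnmt3bb.2 at 1 dpf. A difference that is not called is therefore not shown to be absent, and counts of calls are not alike between comparisons.

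All probes of the 9 genes are named, with up to 4 called genes of largest change from each list (1 such gene is not reported here) and the 5 genes most correlated with the brightest probe of prss59.1, ins and ptf1a. The members and lists were chosen with earlier results of these data known. Alternatives changed the scaling, background correction, filters, floor, outlier handling, variance model, arrays fitted, blocks (replicate number, slide) and threshold, used the deposited table, and left out each array in turn.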

Additional observations from a re-analysis of the deposited data

Results flagged for a closer look

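The effect of dnmt3bb.2 differed between 1 dpf and 2 dpf for 5 of 16 member probes tested, by an interaction term in limma. Of all probes tested 9% were called. The effect was larger at 2 dpf by 1.39 log2 for prss59.1 probe a, by 1.19 for prss59.1 probe b and by 1.07 for prss59.2. It was lower at 2 dpf for prss1 probe b, with a change of -1.29, and for cpa5 probe a, with a change of -1.12.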

How the results depend on the processing

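Of 71 called results of single probes that could be followed, keeping outlier spots lost 0 calls, scaling by the 75th percentile 1, quantile normalization 3 (1 of them reversed), trend and robust variance 3, no filter 4, normexp correction 6 (1 reversed), a floor of 32 8, slide as a random block 9 of 46, slide as a fixed block 7 of 20, all 45 arrays in 1 fit 23 and the replicate block 26. The deposited table and a stricter filter on dim probes also lost 0. The deposited table holds the same values as used here. Only calls of probes that pass the stricter filter were followed, so neither 0 shows that a call is robust. The causes were not tested. The labels do not say that replicate numbers pair the arrays. Deviations of same-numbered arrays correlated by 0.10 to 0.25 in MZdnmt3aa against WT at 1-2 cell. In the other comparisons they correlated by -0.06 to 0.07. The replicate block gave 0 called members in MZdnmt3aa at shield, 1 dpf and 2 dpf and 2 at 5-somite. In dnmt3bb.2 it gave 0 at 1-2 cell, 2 at 5-somite and 3 at 2 dpf.

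Counts of called members in MZdnmt3aa at shield were 1 under normexp correction, a floor or no filter and 6 with all 45 arrays. At 5-somite they were 3 with a floor, 1 with slide as a random block and 8 at an adjusted p of 0.05, at 1 dpf 3 under normexp correction, and at 2 dpf 7 with all arrays and 8 at 0.05. In dnmt3bb.2 they were, at 1-2 cell, 2 under normexp correction, trend and robust variance or all arrays, 0 with slide as a fixed block and 3 at 0.05. At shield they were 6 under normexp correction and 6 at 0.05, at 5-somite 8 under normexp correction, 3 with no filter, 2 with all arrays and 9 at 0.05, at 1 dpf 6 with all arrays, and at 2 dpf 3 with slide as a fixed block and 10 at 0.05. In WT from 1 to 2 dpf they were 4 with all arrays and 6 with slide as a random block. For the change of the MZdnmt3aa effect 1 was called with a floor, with all arrays or at 0.05, and for that of dnmt3bb.2 3 with all arrays. The timing difference of dnmt3bb.2 at 1 dpf (0.0541) was 0.0776 over probes changing at least 8-fold and 0.0682 after quantile normalization.

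Values that changed sign were prss59.1 probe a in MZdnmt3aa at 1-2 cell (0.56, normexp), and, in WT from 5-somite to 1 dpf, prss1 probe b (-0.023 at the 75th percentile, -0.27 quantile) and ela3l probe a (-0.15 quantile, -0.20 normexp). So did pdx1 probe b in WT from 1 to 2 dpf (-0.17, quantile) and the change of the MZdnmt3aa effect on cpa5 probe a (-0.25 normexp, -0.62 with a floor). The median of all probes shifted by 0.37 under normexp correction in MZdnmt3aa at 1-2 cell, and by -0.25 under quantile normalization in WT from 5-somite to 1 dpf.

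Leaving out 1 array gave counts, from 1-2 cell to 2 dpf, of 4 to 4, 0 to 3, 3 to 7, 1 to 7 and 1 to 8 in MZdnmt3aa and 0 to 3, 2 to 4, 2 to 4, 9 to 11 and 3 to 5 in dnmt3bb.2. They were 12 to 14 and 7 to 11 between WT stages, and 0 to 2 and 3 to 5 for the changes of the effects. The timing differences were -0.0578 to 0.07 and 0.0505 to 0.0617 at 1 dpf and -0.18 to -0.088 and -0.1312 to -0.1078 at 2 dpf, for MZdnmt3aa and dnmt3bb.2. Of 71 calls run with an array left out, 24 ended without some 1 array. For 4 further calls, all of cpa5, no array was left out.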
